A study of Mus musculus with 4 samples.

Results

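The regions described here are the peaks of phosphorylated Smad3 (pSmad3) that lay inside genes and had no counterpart in the list of phosphorylated Smad1/5 (pSmad1/5). They come from CUT&RUN, in which an antibody directs a nuclease to its target on chromatin and the released fragments are sequenced. All 4 libraries were made from molar germs of mouse embryos at E13.5 (E counts days of embryonic development) with the wild-type genotype. At this stage the dental epithelium forms a bud within condensing mesenchyme. The libraries share this genotype and stage, the labels name no further allele or agent, and the groups differ in the antibody: 2 were made against pSmad1/5 and 2 against pSmad3. Germs were dissociated to single cells, and the labels name no sort by cell type. Each antibody has 1 deposited list of peaks common to its libraries, so no value has a replicate error and no test between samples was possible.

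A pSmad3 row was taken when it lay on chromosomes 1 to 19, shared no base with a pSmad1/5 row, had a maximum signal of at most 26 (2 times the list median of 13), and had its midpoint inside a protein-coding or lncRNA gene but over 1 kb from every gene end. Of 7905 pSmad3 rows, 7785 lay on these chromosomes, 6017 of those shared no base with the pSmad1/5 list, 5985 were under the ceiling, 3892 had their midpoint in a gene, and 3470 passed all steps. These 3470 peaks came from 3423 calls, since 94 of them were pieces of 47 calls. They covered 14.9 Mb. The peaks were chosen by their overlap, maximum and place, so these values are given below only as a description. Unshared is used below for peaks of either antibody that pass these steps. The same steps gave 625 pSmad3-only peaks at gene ends and 1890 between genes. With the antibodies exchanged they gave 4467 pSmad1/5-only peaks inside genes.

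Smad3 is phosphorylated by the receptors of TGF-β, activin and related ligands, whereas Smad1 and Smad5 are phosphorylated by BMP receptors. Phosphorylated Smads join Smad4, enter the nucleus and bind short DNA motifs, usually beside other transcription factors, at promoters and at enhancers, many of which lie in introns. In the tooth germ, signals of both branches pass between epithelium and mesenchyme and take part in bud growth and in the fate of the mesenchyme. A peak inside a gene is a place where fragments were recovered, and does not show that the gene is regulated from there.

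The sequence of the peaks was not used here, so the sequences shown are those that RefSeq gives for features within them. On the chromosomes with promoter sequences, 384 of 31396 annotated transcription starts lay in one of these peaks (1.22%). The 4 shown are from the genes on the lists below whose start lies in a peak inside the same gene, with 1 of 2 such starts for Hdac7. The 300 bases run from 250 before to 50 after the start, on GRCm38.p6, which is the assembly of mm10. Capitals mark CAGAC on either strand, a short motif that Smads can bind, and TGANTCA, the motif of AP-1 factors. GGCGCC was searched on the same terms and is absent from these 4.
Ablim1 chr19:57274619-57274918 (minus strand): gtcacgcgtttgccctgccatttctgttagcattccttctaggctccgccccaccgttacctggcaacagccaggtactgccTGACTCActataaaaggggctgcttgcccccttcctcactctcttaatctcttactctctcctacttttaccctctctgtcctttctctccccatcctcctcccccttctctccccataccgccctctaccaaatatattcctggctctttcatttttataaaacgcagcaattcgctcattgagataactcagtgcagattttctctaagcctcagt
Hdac7 chr15:97831446-97831745 (minus strand): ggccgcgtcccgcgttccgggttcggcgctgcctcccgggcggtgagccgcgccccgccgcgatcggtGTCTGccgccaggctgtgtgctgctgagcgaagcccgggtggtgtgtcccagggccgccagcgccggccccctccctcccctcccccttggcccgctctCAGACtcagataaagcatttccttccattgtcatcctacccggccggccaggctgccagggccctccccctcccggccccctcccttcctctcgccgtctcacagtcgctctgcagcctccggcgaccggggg
Kdr chr5:75978406-75978705 (minus strand): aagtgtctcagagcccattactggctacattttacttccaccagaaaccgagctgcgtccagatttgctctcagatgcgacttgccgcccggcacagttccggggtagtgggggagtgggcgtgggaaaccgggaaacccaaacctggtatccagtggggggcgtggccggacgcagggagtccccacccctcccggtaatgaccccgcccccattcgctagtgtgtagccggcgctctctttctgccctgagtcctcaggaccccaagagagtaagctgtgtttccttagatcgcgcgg
Maml3 chr3:52104957-52105256 (minus strand): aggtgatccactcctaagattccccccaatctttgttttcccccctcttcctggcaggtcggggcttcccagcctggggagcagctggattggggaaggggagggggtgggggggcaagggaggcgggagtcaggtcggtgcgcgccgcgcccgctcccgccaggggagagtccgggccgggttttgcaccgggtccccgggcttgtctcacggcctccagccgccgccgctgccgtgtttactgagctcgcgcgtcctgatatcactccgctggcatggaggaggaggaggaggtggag
The Kdr and Maml3 starts lie 617 and 313 bp into their genes as annotated, and so belong to the first part of the gene. The Ablim1 and Hdac7 starts lie 40676 and 13007 bp into the gene and mark internal starts. Kdr encodes a receptor of vascular endothelial growth factor, Maml3 a coactivator of Notch, Ablim1 an actin-binding protein and Hdac7 a histone deacetylase. Over all 384 starts in a peak, CAGAC was found in 52.1% of promoters, against 49.6% of all 31396. GGCGCC was found in 13.54% against 12.11%, and TGANTCA in 7.81% against 7.84%. The median GC content of these promoters was 58.0%, against 53.0% over all.

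Of 919 miRNA hairpins on these chromosomes, 18 lay in a peak (1.96%), in 17 peaks. The mature miRNAs shown are the 5p arms from the lncRNA hosts, Mirc35hg and Mir9-3hg, and that of the TGF-β target Adam19, with the seed (bases 2 to 8) in capitals.
miR-96-5p: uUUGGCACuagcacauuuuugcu
miR-183-5p: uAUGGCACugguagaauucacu
miR-9-5p: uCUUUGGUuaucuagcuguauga
miR-8100: aGGAGGAAagggagcaagcaggu
Mir96 and Mir183 shared 1 peak of 3130 bp in Mirc35hg (chr6:30169086-30172215), with a maximum of 14. They belong to a cluster known from sensory cells, and their 5p seeds are UUGGCAC and AUGGCAC. The peak around Mir9-3, one of the genes of the neural miRNA miR-9, was 7014 bp wide (chr7:79503306-79510319) with a maximum of 11. The peak around Mir8100 in Adam19 was 3916 bp wide with a maximum of 14. No seed was shared among these 4.

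The median width of these peaks was 4441.5 bp (interquartile range 2432.25 to 5671.5, from 3 to 21220 bp). The maximum signal, in the authors' coverage scale, had a median of 13 (interquartile range 12 to 14), and 62.3% of peaks were at or under the list median. The total signal had a median of 27341 and lay above the median of the whole list for 44.4% of peaks. It is summed over the whole call, which can reach past the peak, here and for the genes below. The region of maximum signal lay inside the peak itself for 63.8% (exact 95% Clopper-Pearson interval 62.2 to 65.4). For the others the maximum too is that of a call that reaches further. These intervals cover counting error only. Widths at gene ends (median 4602 bp) and between genes (4548.5 bp) were close to these. The 781 pSmad3 peaks inside genes that met the ceiling but overlapped a pSmad1/5 row were wider, with a median of 5426 bp.

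The rule has 3 borders. At the ceiling, the peaks just inside were in Ahnak2 and Gm41091 with a maximum of 26 and in Dnah8 with 25. The rows just outside were in Gm3739 and Abcg2 with 27 and in Glp1r with 29, and 12 unshared rows inside genes were over the ceiling in all. The nearest peak to a gene end had its midpoint 1000.5 bp away. Of the rows left out that shared no base and had their midpoint in a gene, the nearest to this border lay at 997 bp. The nearest to a pSmad1/5 row lay 7 bp from it, and the smallest overlap that removed an ordinary row inside a gene was 4 bp. The row itself reached over a gene end in 402 of 3470 peaks (11.6%).

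The 10 peaks with the highest total signal came from 7 genes on 5 chromosomes. A total is that of the whole call and not of the peak alone. In each of these 10 the width times the maximum is below the total, so part of the total lies outside the peak. On chromosome 17, 5 of them lay within Btbd9 and Dnah8, a gene for an axonemal dynein chain. Both Btbd9 peaks (chr17:30460732-30467235 and chr17:30561294-30571434) carry a total of 898474 and a maximum of 21, because they are pieces of 1 call that spans 110703 bp. The 3 Dnah8 peaks had totals of 377380 (2 pieces of 1 call) and 249190. The others were in C1s1 (235881), in the lncRNA Gm26812 and in the amino acid transporter gene Slc7a5 (both 199030, 1 call), in Dnah17 (170558) and in Ahnak2 (163691, in a row of 86 bp). The maxima of these 10 were between 16 and 26.

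The peaks fell in 2708 genes. Among protein-coding genes 2260 of 20560 (11.0%) held at least 1, and among lncRNA genes 448 of 12324 (3.64%). For comparison, 2587 protein-coding genes (12.6%) held a pSmad1/5-only peak. Protein-coding hosts were long, with a median of 51.1 kb against 17.6 kb over all protein-coding genes, and 529 of them (23.4%) held at least 2 distinct calls. The share of genes with a peak rose with gene length. It was 3.35% of genes of 2 to 10 kb, 9.51% of 10 to 30 kb, 17.2% of 30 to 100 kb, 27.7% of 100 to 300 kb and 33.8% of those over 300 kb. Density ran the other way. Per Mb of gene interior, the part over 1 kb from gene ends, there were 9.74 peaks in the shortest of these classes and 1.29 in the longest, against 3.21 over all genes. The pSmad1/5-only peaks followed the same course, from 11.3 to 1.86 per Mb.

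**Figure D1:**
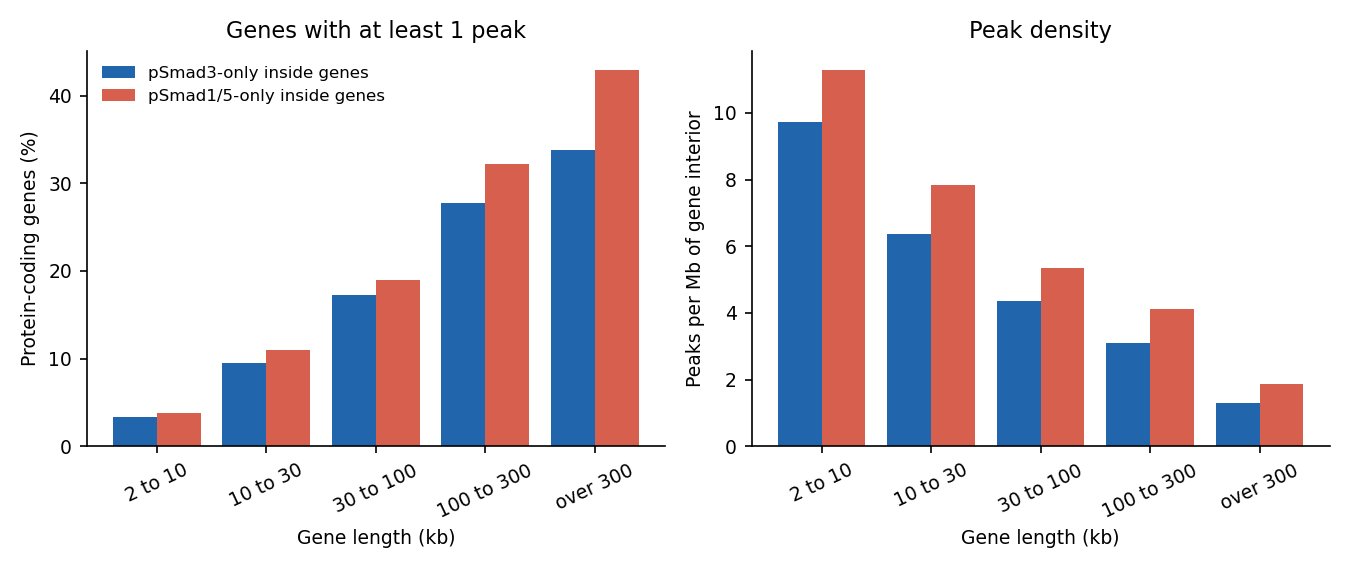
Share of protein-coding genes with at least 1 peak (left, percent) and peaks per Mb of gene interior (right) by gene length in kb, for pSmad3-only (blue) and pSmad1/5-only (red) peaks inside genes. The share of genes rises to 33.8% and 43.0% in genes over 300 kb, while density falls from 9.74 to 1.29 and from 11.3 to 1.86 per Mb.

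Most calls in 1 gene were found in Cdh4 (9), a classical cadherin gene of 457 kb. Cdh23, another cadherin gene, the synaptic scaffold gene Shank2 and the sorting receptor gene Sorcs2 had 8 each. Prdm16, which encodes a zinc finger regulator of transcription, had 7, as had Camta1, Csmd2 and Rph3al, and Rbfox3 and Sdk2 had 6, the last 2 taken in order of peaks and name from the 7 genes with 6 calls. Of these 10 genes, 9 also held pSmad1/5 rows, from 5 in Shank2 to 18 in Camta1. The exception was Rph3al, a gene of 137 kb linked to vesicle release, which held 7 peaks and no pSmad1/5 row. Its peaks had maxima of 11 to 16 and totals of 21801 to 28765, so each was an ordinary peak of the list. The share of the gene covered was 100% for 24 protein-coding genes of at most 11.2 kb. The first 5 of them by name are 2610528J11Rik, Abhd14b, Acd, Arid3c and Atf6b, of 3.07 to 7.93 kb, each under a single peak that reached past its ends.

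Position along the gene could be read for the 2586 peaks with 1 host gene of known strand. With each gene divided into 5 equal stretches from start to end, these held 17.2%, 19.2%, 20.3%, 21.7% and 21.6% of peaks. The same stretches held 17.7%, 21.5%, 21.7%, 21.5% and 17.7% of the positions over 1 kb from gene ends in these genes. Positions where a row would overlap a pSmad1/5 row were not taken out, and the effect of this was not tested. The last stretch held more peaks than its share of positions (exact 95% interval 20.04 to 23.25), and the second held fewer (17.68 to 20.75). Within 10 kb of the gene's end lay 30.1% (28.3 to 31.9) against 26.8% of positions, and within 10 kb of its start 25.3% (23.6 to 27.0) against 26.7%. The median distance was 27.7 kb from the start and 22.7 kb from the end. An annotated start of any gene lay in 280 of 3388 peaks (8.26%, 7.36 to 9.24). This compares with 7.37% for rows of these widths at the positions over 1 kb from gene ends in their hosts. Of the 2993 of these peaks with no gene end in the row, 85 held a start (2.84%).

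**Figure D2:**
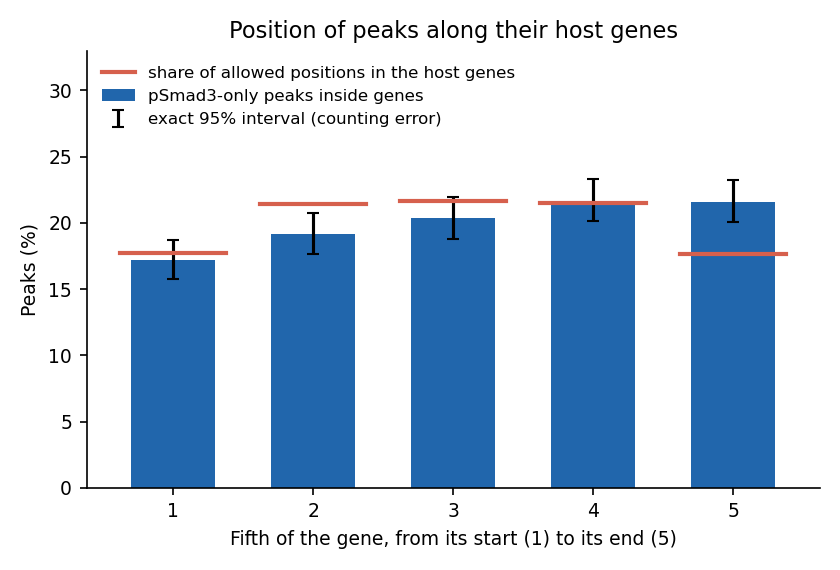
Percent of 2586 pSmad3-only peaks in each of 5 equal stretches of their host gene, from start to end (bars, exact 95% intervals for counting error). Red lines give the percent of positions over 1 kb from gene ends in the same genes, without regard to pSmad1/5 rows. The last stretch holds 21.6% of peaks and 17.7% of positions.

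The median gap to the nearest pSmad1/5 row was 27233 bp (interquartile range 8461.75 to 78866.8), and 28.1% of peaks (26.6 to 29.6) lay within 10 kb of one. At gene ends this share was 29.4% (25.9 to 33.2), and between genes 20.7% (18.9 to 22.6). The host gene held a pSmad1/5 row elsewhere for 53.6% of peaks (51.9 to 55.3), a share in which genes with several peaks count several times. Counted by gene, 1181 of 2708 hosts held one (43.6%), with 47.2% of protein-coding and 25.7% of lncRNA hosts. The share over all genes was not computed, and hosts are longer than other genes. Both kinds of unshared peak were present in 867 protein-coding genes, which is 38.4% of those with a pSmad3-only peak and 33.5% of those with a pSmad1/5-only peak. Read within classes of gene length, hosts of a pSmad3-only peak held a pSmad1/5-only peak in 4.17%, 18.97%, 38.02%, 60.9% and 72.8% of genes, from short to long. Genes without a pSmad3-only peak did so in 3.78%, 10.2%, 14.99%, 21.2% and 27.8%. Hosts and other genes were alike at 2 to 10 kb, where 7 of 168 hosts held both kinds, and apart in all the longer classes. Median widths were 4441.5 bp (pSmad3-only) and 2316 bp (pSmad1/5-only). Whether genes of 2 to 10 kb have room for both was not tested. Genes within a class still differ in length.

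**Figure D3:**
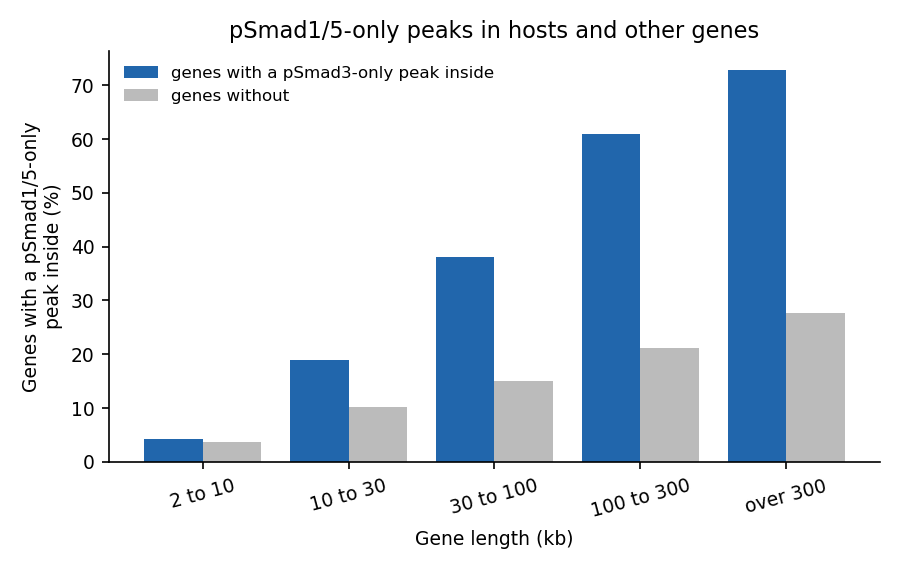
Percent of protein-coding genes that hold a pSmad1/5-only peak inside, by gene length in kb, for genes with (blue) and without (grey) a pSmad3-only peak inside. The bars are 4.17% and 3.78% in genes of 2 to 10 kb and 72.8% and 27.8% in genes over 300 kb.

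Hosts also differed in their promoters. The outermost promoter of 1799 protein-coding hosts had a median GC content of 61.7%, against 56.0% in 14658 other genes, and 20 against 13 CpG. Hosts were higher in GC in each length class, with 58.7% against 55.3% at 2 to 10 kb and 62.5% against 60.3% over 300 kb. The CpG counts were higher in hosts in 4 of the 5 classes and equal, at 20, in genes of 30 to 100 kb. Genes with a pSmad1/5-only peak had the same median GC of 61.7%.

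Known targets of TGF-β often held a peak. Of 34 genes on this list, which was drawn up with earlier results of these data known, 11 did, against 3.81 at the rate of all protein-coding genes of the same lengths. Inhibitors of the pathway were among them. Smad7, the inhibitory Smad, had a peak of 6217 bp (chr18:75372117-75378333, total 46468), and Ski, a Smad corepressor, had one of 701 bp. Pmepa1 and Ldlrad4, whose products restrain receptor-activated Smads, had 1 each and also 2 pSmad1/5-only peaks each. The cyclin-dependent kinase inhibitor gene Cdkn1a had a peak of 9421 bp (chr17:29094689-29104109) with a total of 124199, at the 95.4 percentile of the list, and a maximum of 25. It covered 61.9% of the gene and reached past its end.

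Among the other targets, Col1a1, a chain of type I collagen, had 2 peaks that covered 63.1% of the gene, and no pSmad1/5 row. Tgfbi, a secreted matrix protein gene, and Timp3, an inhibitor of metalloproteinases, had 1 each and no pSmad1/5 row. Ltbp2, of the latent TGF-β binding protein family, had 1 (total 48484) beside 4 pSmad1/5-only peaks, and the growth factor gene Pdgfb had 1 (total 51946) beside 2. Adam19, a membrane metalloprotease gene, had 1 of low total (21898, at the 8.96 percentile). Over 5 kb from gene ends, 7 of the 34 targets held a peak. Hosts over all genes fell from 2708 to 1785 under this setting. They fell to 1349 with totals above the list median and to 2071 with no pSmad1/5 row within 10 kb, settings also used for lists below. Of the 11 genes, 4 also held a pSmad1/5-only peak, and no other gene of the 34 did (4.36 at the rate of those peaks by length). Skil and Ccn1 had no unshared peak of either antibody inside. Of 22 BMP targets, only Smad7, which is on both lists, held the midpoint of a pSmad3-only peak (1.85 at the rate by length). Of the 22, 4 held a pSmad1/5-only peak (2.14 at the rate). Id1, Id2 and Id3 held none, and their 1.16 to 2.29 kb leave little or no room over 1 kb from both ends. The start of Gata2, also a BMP target, lay in a pSmad3-only peak (chr6:88185661-88195774) whose midpoint was in Gm38708.

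Components of the 2 pathways stood near the rate by length. In the TGF-β and activin pathway 3 of 28 genes held a peak (4.85 at the rate): Smad3 itself, and the coreceptor genes Tgfbr3 and Eng. The Smad3 peak was weak (chr9:63672649-63675941, total 21235, at the 2.71 percentile). All 3 also held a pSmad1/5-only peak, as did 6 others of the list, or 9 in all (5.54 at the rate). In the BMP pathway 4 of 26 held a peak (4.01 at the rate): the ligand genes Bmp6 and Bmp7, the receptor gene Bmpr1b, and Bmp1, which encodes a protease. Bmp7 had 2 peaks, 849 and 1718 bp from a pSmad1/5 row, and Bmp6 and Bmpr1b had no pSmad1/5 row inside. Bmp2, Bmp3 and Bmp4 had no unshared peak of either antibody.

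The Hedgehog pathway held peaks in 8 of 21 genes (3.39 at the rate), with 18 peaks in all, or 10.3 per Mb of interior. Gli2, a transcription factor of the pathway, had 5 (totals 22100 to 41827, maxima 11 to 15). These began 18.045, 48.2, 69.0, 163 and 173 kb from its start, with 4 pSmad1/5-only peaks between or beyond them. Among the others, the receptor gene Ptch1 had 1, the coreceptor gene Boc 2, the inhibitor gene Sufu 2, the acyltransferase gene Hhat 3, Ulk4 3 and Disp1, needed for ligand release, 1. Shh held no such peak but 1 pSmad1/5-only peak, and Ihh and Dhh held neither. In all, 6 genes of the Hedgehog list held a pSmad1/5-only peak (3.89 at the rate of those peaks). In the Notch pathway 5 of 25 held a peak (3.45 at the rate), 2 with totals above the list median and 3 over 5 kb from gene ends. Notch1 had 2, with totals of 72956 and 43045, and covered 35.8% of its length. Notch2, the ligand gene Dll3, Maml3 and the target Heyl held no pSmad1/5 row. A pSmad1/5-only peak lay in 4 genes of the Notch list (4.02 at the rate of those peaks).

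**Figure D4:**
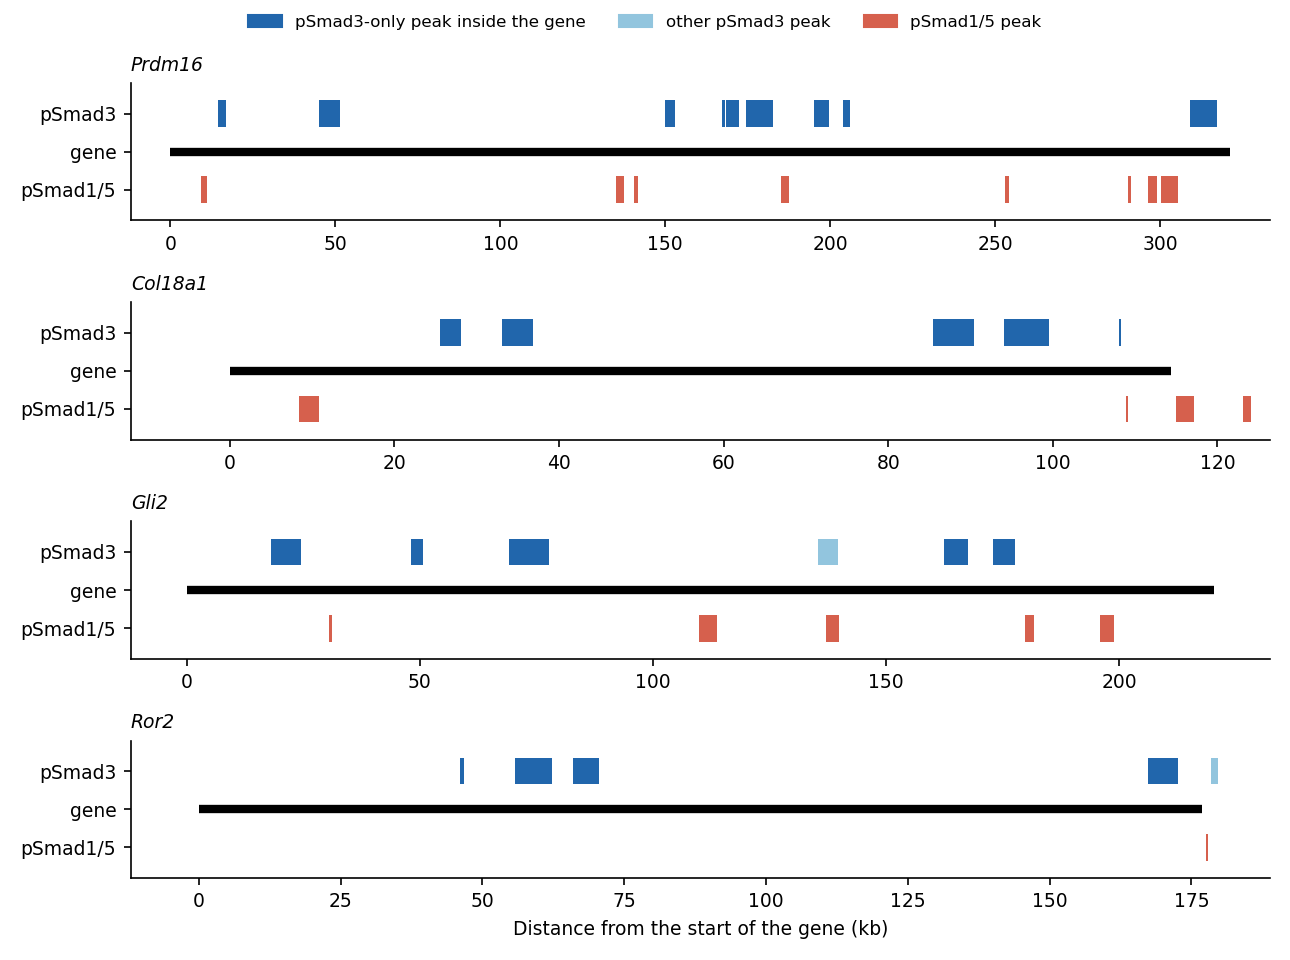
Positions of pSmad3-only peaks (dark blue), other pSmad3 peaks (light blue) and pSmad1/5 peaks (red) in 4 genes, in kb from the gene start. The genes are the list genes of known strand with the most distinct calls, a choice made after the values were seen, and Ror2 holds 4 pSmad3-only peaks with no pSmad1/5 peak inside.

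In the Wnt pathway 12 of 42 genes held a peak (7.02 at the rate), and 5 a pSmad1/5-only peak (7.98 at the rate). With totals above the list median, 6 of the 42 held a peak, and hosts over all genes fell from 2708 to 1349. Ror2, a receptor of noncanonical Wnt signalling, had 4 peaks and no pSmad1/5 row inside, and the corepressor gene Tle3 had 2 and none. The ligand genes Wnt3, Wnt4, Wnt7b and Wnt11 had 1 each, whereas Wnt5a, Wnt6 and Wnt10a had no unshared peak of either antibody. The transcription factor genes Tcf7, Tcf7l1 and Tcf7l2 had 1 each. Among Fgf and receptor tyrosine kinase genes 5 of 26 held a peak (3.89 at the rate): Fgfr2, Spred2, Egfr, Igf1r and Pdgfrb. The Pdgfrb peak had a total of 77505. Fgf3, Fgf4 and Fgf8 had none, and Fgf8 held 1 pSmad1/5-only peak. Of the 26 genes, 7 held a pSmad1/5-only peak (4.45 at the rate of those peaks).

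Genes of actin and adhesion and of chromatin held peaks most often among the larger lists. Of 38 actin and adhesion genes 19 held one (7.95 at the rate), with 36 peaks. Parva, an adaptor at integrin contacts, and Arhgap26 had 4 each, and Tns1 had 3. Vcl, the vinculin gene, had 1 (total 34541) and Itga11, a collagen receptor gene, 1 (total 51797). Of 38 chromatin and cofactor genes 18 held one (8.94 at the rate), with 38 peaks, of which Prdm16 had 9. Ep300, Crebbp and Ncor1 held no unshared peak of either antibody. Of the same lists, 17 and 20 genes held a pSmad1/5-only peak (9.17 and 10.6 at the rate of those peaks by length), and 12 and 13 genes held both kinds. With totals above the list median, actin and adhesion hosts were 8. Collagens and other matrix genes held peaks in 13 of 42 (8.97 at the rate), and 18 held a pSmad1/5-only peak (10.3 at the rate). Over 5 kb from gene ends, or with no pSmad1/5 row within 10 kb, 8 of the 42 held a peak. Col18a1 had 5 peaks and Col5a1 had 3. Axon guidance genes held peaks in 9 of 32 (8.52 at the rate), and 16 held a pSmad1/5-only peak (10.3 at the rate).

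**Figure D5:**
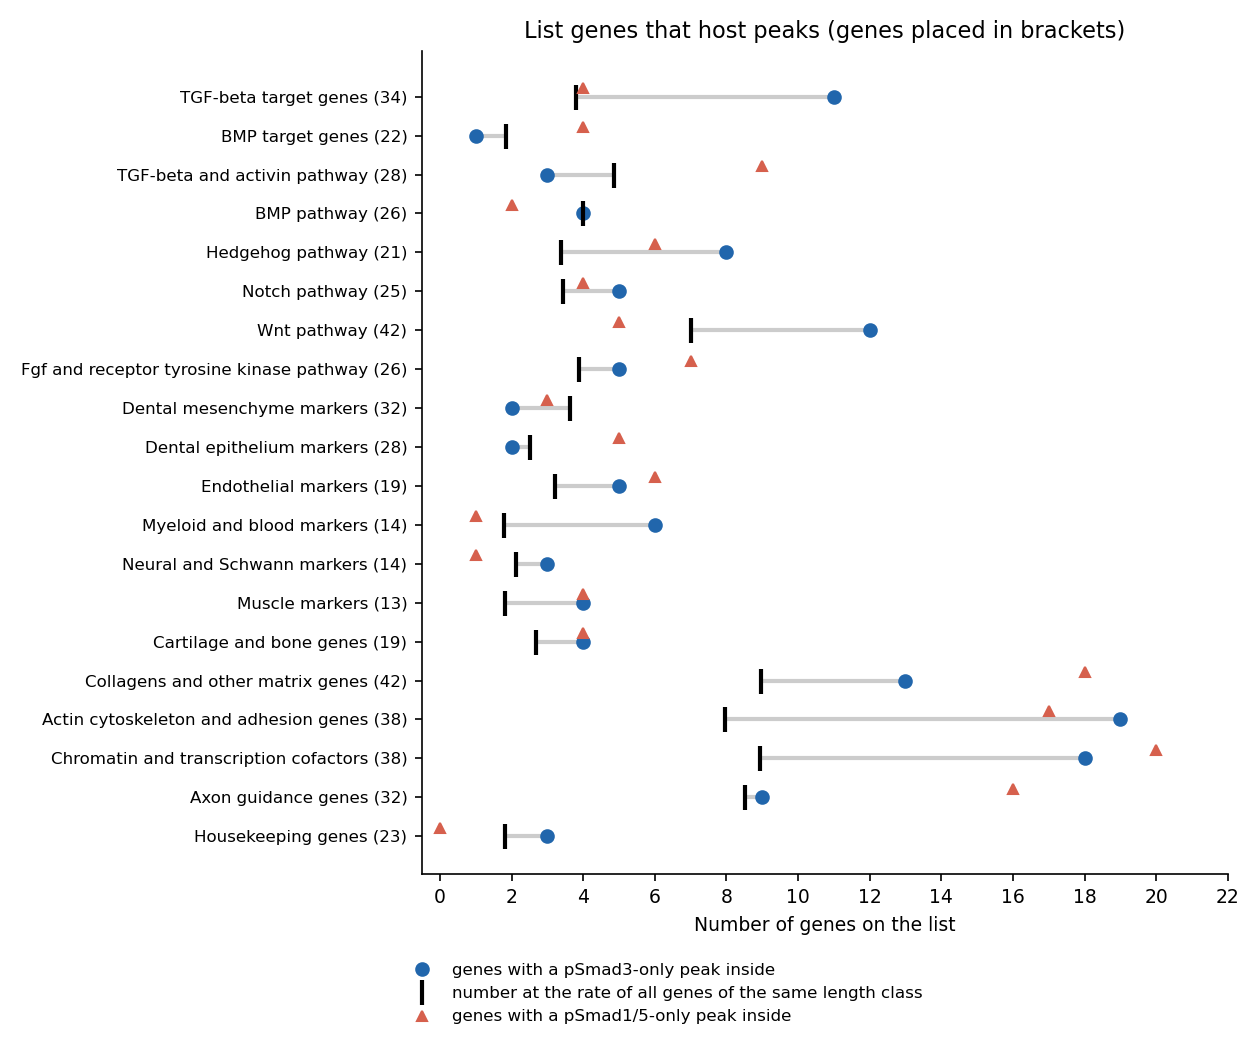
Number of genes on each of 20 lists with a pSmad3-only peak inside (blue points) or a pSmad1/5-only peak inside (red triangles). Black bars give the number at the rate of all protein-coding genes of the same length class, for pSmad3-only peaks alone. TGF-β targets have 11 blue against 3.81, myeloid and blood markers 6 against 1.78, Hedgehog genes 8 against 3.39 and BMP targets 1 against 1.85. The lists were chosen with earlier results of these data known.

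Counts of dental cell markers with a pSmad3-only peak were near the rate by length. Of 32 mesenchyme markers, Gli2 and Zfhx3 held a peak (3.64 at the rate), and Msx1, Pax9 and Lef1 held no unshared peak of either antibody. Of 28 epithelium markers, Irx1 and Grhl3 held one (2.52 at the rate), and Irx1 was covered whole by a peak of 6890 bp with a total of 57136. Krt5 held neither, and Shh held only the pSmad1/5-only peak. A pSmad1/5-only peak lay in 3 mesenchyme markers (4.25 at the rate of those peaks) and 5 epithelium markers (2.86). Markers of other cell types held peaks too. Of 14 myeloid and blood markers 6 did (1.78 at the rate), among them Spi1, a transcription factor gene of myeloid cells, with 2, and Csf1r, the receptor for a macrophage growth factor, with 1 (total 57610). Only Runx1 of this list held a pSmad1/5-only peak (2.04 at the rate of those peaks). The count of 6 fell to 3 with no pSmad1/5 row within 10 kb, with totals above the list median, or over 5 kb from gene ends. Over all genes, hosts fell from 2708 to 2071, 1349 and 1785 under these settings, in this order. Endothelial markers held peaks in 5 of 19 (3.21 at the rate), among them Kdr, Eng, Erg and Vwf. On this list 6 genes held a pSmad1/5-only peak (3.66 at the rate of those peaks). The count of 5 was 3 over 5 kb from gene ends or with no pSmad1/5 row within 10 kb. Neural and Schwann markers held peaks in 3 of 14 (2.12 at the rate), muscle markers in 4 of 13 (1.81) and cartilage and bone genes in 4 of 19 (2.69). A pSmad1/5-only peak lay in 1 (2.53 at the rate of those peaks), 4 (2.08) and 4 (3.15) genes of these lists. Which cells gave these peaks was not tested. Of 23 housekeeping genes, Actb, Gapdh and Rab7 held one (1.82 at the rate), and none held a pSmad1/5-only peak (2.06 at the rate of those peaks). The start of Snrpd3, also on this list, lay in a pSmad3-only peak whose midpoint was in Gucd1.

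Density differed among chromosomes. It ran from 1.35 peaks per Mb of gene interior on chromosome 3 to 4.81 on chromosome 11. Chromosomes 4 (4.78), 17 (4.70), 7 (4.67) and 19 (4.34) were also high, and 13 (1.94), 18 (2.14) and 1 (2.21) were low. The pSmad1/5-only peaks were lowest on chromosome 3 as well (1.70) and highest on chromosome 7 (6.33).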

How the data were processed

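CUT&RUN was done on molar tooth germs with antibodies against pSmad1/5 and pSmad3, in 2 libraries each. Tools named in the submitters' processing notes are SEACR, Bowtie2, deepTools, bedtools and SAMtools, on build mm10 and without versions. Per the labels, the authors deposited 1 list of common peaks per antibody, with the maximum coverage signal of each call and its total, a score that sums coverage over the call. The sources used here do not give how the lists were joined, the calling threshold or any control library. Depth is unknown, and how the authors' scaling acts on the signal was not tested, so signals were used only within a list. Rows alike in score, maximum and its region were counted as 1 call.

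Overlap and gene position were computed with Python 3.11.15, pandas 2.3.3, numpy 2.4.6 and SciPy 1.17.1, and the steps were tested on simulated rows. Genes came from the RefSeq table of GRCm38.p6, without 189 genes that start before 3 Mb. Promoter sequences of chromosome 18 were not used here. The table holds no exons, so exon and intron were not used here. Strand came from the promoter table. Of 511 list genes, 504 were placed. The rate by length sums, over a list, the share of all protein-coding genes of the same length class that hold a peak, with classes divided at 2, 10, 30, 100 and 300 kb. Named genes were the hosts of the 10 highest totals, the 10 genes with most calls, the 5 most covered, up to 5 with and 3 without a peak per list, and the rows at the ceiling. Some genes this rule takes are not reported here. Further genes named from a list, and the genes whose positions are drawn, were chosen after their values were seen. The peaks, lists and alternatives were chosen with earlier results of these data known.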

Additional observations from a re-analysis of the deposited data

How the results depend on the processing

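The results were recomputed under 9 other settings and 1 chosen after seeing the data, which leaves out rows that hold a gene end. The number of peaks, 3470, stayed within 1.5 times under all but 1: with totals above the list median it was 1541. The number of host genes, 2708, fell to 1349 under that setting and to 1785 with peaks over 5 kb from gene ends. With no pSmad1/5 row within 10 kb it was 2071. The share of peaks whose host holds a pSmad1/5 row, 53.6%, moved past its counting interval to 59.8% with overlap of up to 50% of the row allowed, 40.4% with no pSmad1/5 row within 10 kb, 55.9% with totals above the median, 62.4% over 5 kb from gene ends, 56.3% with protein-coding genes only and 56.4% without rows that hold a gene end. The first 2 of these change the overlap that defines the peaks, and the cause of the others was not tested. Counts of list genes moved by over 1.5 times in 23 of 200 cases. With totals above the median, Fgf and receptor tyrosine kinase genes with a peak fell from 5 to 2, muscle markers from 4 to 2, neural and Schwann markers from 3 to 1 and housekeeping genes from 3 to 0. With no pSmad1/5 row within 10 kb, TGF-β and activin pathway genes fell from 3 to 1 and epithelium markers from 2 to 0. Among the other results, with the 3 above, 31 of 80 values moved past 1.5 times (counts) or past their counting interval. With totals above the median, density fell from 3.21 to 1.43 per Mb and hosts with 2 or more calls from 21.2% to 13.6%. Over 5 kb from gene ends, the median host length was 71.8 kb, against 45.6 kb, and 30.3% of peaks lay within 10 kb of a gene end, against 52.1%. TGF-β targets with a peak were 11 in the report and 7 over 5 kb from gene ends. Settings on exons and on motifs in the peaks were intended but not run. No paired analysis was possible because each antibody has 1 list for both libraries. Without depth or values per library, neither replicate spread nor the precision of a signal can be given.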
